A study of Mus musculus with 6 samples.

Results

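The 4 Id genes (Id1, Id2, Id3 and Id4) and the 3 E protein genes (Tcf3, Tcf4 and Tcf12) were examined in sorted cells of the mouse Atoh1 lineage. Members were all probe sets that the platform annotation assigns to 1 of these 7 symbols alone, which makes 7 of the 18193 genes named this way and 22 of the 45101 probe sets on the array, 8 for Id genes and 14 for E proteins. The genes were selected on their signal differences between E10-labelled and E13-labelled cells on these same arrays, so those differences are given for the members as a description. Counts of members past the threshold stand beside the share over the whole array, no p-value of a single member is given, and nothing is read from either. Tcf3 and Tcf4 are here the E protein genes with Entrez gene numbers 21423 and 21413, not the Wnt effectors Tcf7l1 and Tcf7l2, which have also been called by these names.

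E proteins are basic helix-loop-helix transcription factors that are expressed in most tissues. They pair with tissue-restricted factors of the same class, Atoh1 among them, and bind short DNA motifs called E-boxes. Id proteins keep the helix-loop-helix domain but lack the basic region that contacts DNA, so an E protein paired with an Id protein cannot bind an E-box. In the developing nervous system Id genes are known for holding back differentiation of progenitors and as targets of BMP signalling, and some of them are also expressed in neurons.

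Cells came from E14.5 Swiss Webster embryos that carried Atoh1-CreER, a tamoxifen-activated Cre expressed under Atoh1 control, and the RCE reporter, which turns on EGFP after recombination. Dams received tamoxifen by gavage at 4 mg per 35 g, at E10.5 for the E10-labelled group and at E13.5 for the E13-labelled group, and EGFP-positive cells of the rhombomere 1 and isthmus region were sorted at E14.5 in both groups. Each group had 3 samples, each on its own Affymetrix 430 2 mouse array, and the labels do not say whether a sample pooled embryos or came from a separate litter, so every error and p-value covers the spread among these samples alone, and that spread may be technical. Labelling day and time since labelling differ together, and the label marks cells by Atoh1 expression and passes to their descendants.

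Values are MAS5 signals, in arbitrary units scaled to a common trimmed mean of 500.0 on every array, and differences are E10-labelled minus E13-labelled on the log2 scale. Array medians over all but control probe sets lay between 97.5 and 111 units, and a probe set was tested if it exceeded its array's median on at least 3 of the 6 arrays. Spearman's correlation across all probe sets ran from 0.874 to 0.893 among E10-labelled arrays, 0.938 to 0.945 among E13-labelled arrays and 0.845 to 0.886 between the groups, so the E10-labelled arrays spread more. The 3′ control probe set of Actb over its 5′ control, a sign of RNA quality, gave ratios of 17.4 to 26.2 in E10-labelled and 12.9 to 16.1 in E13-labelled arrays, and its part in the differences below was not tested. Of 14 measured markers of the rhombic lip and granule cell lineage, 13 were tested and 10 passed the test between the groups, against 30.1% of all tested genes. Of these, 3 were higher in E10-labelled cells (Lhx2, Lhx9 and Meis2) and 7 in E13-labelled cells (Atoh1, Pax6, Barhl1, Zic2, En2, Nhlh1 and Neurod1). Zic1, Meis1 and En1 did not pass, and Barhl2 was at or below the median on every array. The marker lists were chosen with earlier results of these data known, so nothing is read from this share. The calls of Lhx2, Zic2 and En2 were lost without E13-labelled replicate 1. The number of arrays limits the precision.

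Within the group, Id4 had the higher signal in E10-labelled cells, while Id2 and the 3 E protein genes had the higher signal in E13-labelled cells. Id1 and Id3 had low signals that overlapped between the groups. Of the 22 probe sets, 20 passed the filter on low signals and entered the limma fit, and 10 of these 20 had a Benjamini-Hochberg adjusted p under 0.05, against 25.9% of all 23491 tested probe sets. They were the 3 probe sets of Id4, higher in E10-labelled cells (13.4% of all tested probe sets were called in this direction), and 1 of Id2, 5 of Tcf4 and 1 of Tcf12, higher in E13-labelled cells (12.5% of all). No probe set of Id1, Id3 or Tcf3 was called. The count fell to 6, 6 and 5 without E13-labelled replicates 1, 2 and 3, and was 11, 11 and 9 without E10-labelled replicates 1, 2 and 3. The 3 arrays of each group did not overlap for 13 of the 20 tested member probe sets, against 46.9% of all tested probe sets. Because the genes were proposed with this comparison known, nothing is read from these shares. In sorted populations measured in bulk, fewer cells of a type and less RNA per cell cannot be told apart.

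**Figure D1:**
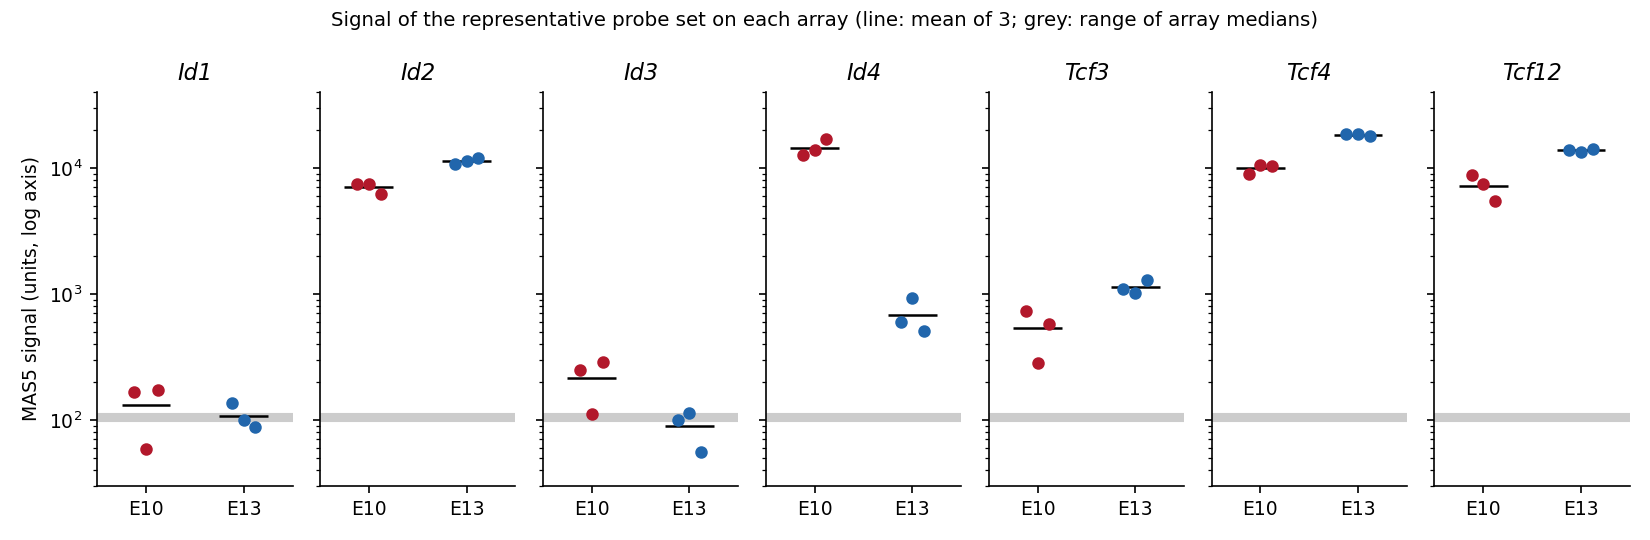
MAS5 signal in arbitrary units (log axis) of each gene's representative probe set on each array, with E10-labelled arrays in red to the left of E13-labelled arrays in blue, a line at the mean of 3 and a grey band at the range of the array medians; signals of different genes are not comparable. Id4 lies between 12681 and 16921 units in E10-labelled and between 506 and 922 units in E13-labelled arrays, while Id2, Tcf3, Tcf4 and Tcf12 are higher in every E13-labelled array and Id1 and Id3 overlap between the groups.

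Id4, an inhibitor of E proteins expressed in neural progenitors and in some neurons, differed most. Its brightest probe set read 12681, 13816 and 16921 units in E10-labelled arrays, against 596, 922 and 506 units in E13-labelled arrays. All E10-labelled arrays were far above all E13-labelled arrays, and the low group still lay above the median of each array. The means were 14473 ± 2195 units in E10-labelled and 675 ± 219 units in E13-labelled cells (SD, n = 3 each), a log2 difference of 4.46 ± 0.28 (limma's SE), or 22.0-fold. Only 83 of the 23491 tested probe sets (0.353%) had a larger difference toward E10-labelled cells.

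The other probe sets of Id4 differed in the same direction but by different amounts. Probe set 1423259_at read 3481, 3082 and 3075 units in E10-labelled arrays, against 39.5, 176 and 157 units in E13-labelled arrays, a log2 difference of 4.96 ± 0.58 (limma's SE). Probe set 1423260_at read 821, 707 and 651 units in E10-labelled arrays, against 72.9, 248 and 143 units in E13-labelled arrays, a log2 difference of 2.40 ± 0.44. In both of these the E13-labelled replicate 1 array was the lowest and fell below its array's median, so the low side of their differences rests partly on signals near background. The annotation gives the 3 probe sets the same accession, so they report 1 gene and are not independent observations of it.

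Id2, an inhibitor found in progenitors and also in maturing neurons, had its brightest probe set at 7479, 7414 and 6229 units in E10-labelled arrays, against 10820, 11393 and 12009 units in E13-labelled arrays. The groups did not overlap, and the direction was opposite to that of Id4. The means were 7041 ± 704 units in E10-labelled and 11407 ± 595 units in E13-labelled cells (SD, n = 3 each), a log2 difference of -0.70 ± 0.17 (limma's SE), or 1.62-fold higher in E13-labelled cells. A dimmer probe set of Id2 averaged 276 ± 75.1 units in E10-labelled and 348 ± 33.2 units in E13-labelled cells and overlapped between the groups. The remaining probe set, 1453596_at, exceeded the array median on only 1 of 6 arrays and was not tested.

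Id1 and Id3, the members of the family most closely tied to BMP signalling and to blood vessels, were dim. Id1 read 166, 58.9 and 172 units in E10-labelled arrays, against 135, 100.1 and 87.4 units in E13-labelled arrays, so the groups overlapped. Its log2 difference was 0.17 ± 0.46 (limma's SE), and it turned to -0.07 without E10-labelled replicate 1 and to -0.10 without E10-labelled replicate 3. Id3 read 249, 111 and 286 units in E10-labelled arrays, against 99.4, 114 and 55.3 units in E13-labelled arrays. The groups overlapped through E10-labelled replicate 2, and the log2 difference of 1.22 ± 0.45 became 1.64 without that array and 0.90 without E13-labelled replicate 3. Each of these genes is covered by 1 probe set, at a signal where MAS5 values vary strongly.

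Tcf4 was measured by 6 probe sets, more than any other member, and all 6 had the higher mean in E13-labelled cells. Its brightest probe set read 8907, 10585 and 10406 units in E10-labelled arrays, against 18473, 18443 and 17811 units in E13-labelled arrays. The groups did not overlap, and the E13-labelled arrays lay close together. The means were 9966 ± 921 units in E10-labelled and 18242 ± 374 units in E13-labelled cells (SD, n = 3 each), a log2 difference of -0.88 ± 0.17 (limma's SE), or 1.84-fold higher in E13-labelled cells. The 5 probe sets without overlap between the groups ranged from 1.72-fold (1434148_at) to 2.80-fold (1424089_a_at) higher in E13-labelled cells. Probe set 1424089_a_at read 1299, 1526 and 1484 units in E10-labelled arrays, against 3462, 3860 and 4848 units in E13-labelled arrays. The remaining one, 1416725_at, averaged 89.2 ± 39.2 units in E10-labelled and 116 ± 23.7 units in E13-labelled cells, near the array medians and overlapping. Tcf4 encodes several isoforms, and the files do not assign its probe sets to them.

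Tcf12, the E protein also called HEB, had the higher mean in E13-labelled cells in all 5 of its probe sets. Its brightest probe set read 8713, 7445 and 5467 units in E10-labelled arrays, against 13790, 13371 and 14090 units in E13-labelled arrays. The groups did not overlap, and the E10-labelled arrays were spread more widely than the E13-labelled ones. The means were 7209 ± 1636 units in E10-labelled and 13750 ± 361 units in E13-labelled cells (SD, n = 3 each), a log2 difference of -0.96 ± 0.22 (limma's SE), or 1.94-fold higher in E13-labelled cells. Of its other 4 probe sets, 1421908_a_at did not overlap, at 552 ± 243 units in E10-labelled and 1045 ± 196 units in E13-labelled cells. The other 3 overlapped, and 1446294_at, the dimmest, had a wide error, with a log2 difference of -2.43 ± 1.13.

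Tcf3, whose transcripts encode the E proteins most studied in lymphocytes, read 736, 281 and 577 units in E10-labelled arrays, against 1097, 1007 and 1283 units in E13-labelled arrays. The groups did not overlap, and E10-labelled replicate 2 was the lowest array. The means were 531 ± 231 units in E10-labelled and 1129 ± 141 units in E13-labelled cells (SD, n = 3 each), a log2 difference of -1.19 ± 0.38 (limma's SE), or 2.28-fold higher in E13-labelled cells. Without E10-labelled replicate 2 the difference was -0.79 on the log2 scale, and without E10-labelled replicate 1 it was -1.48. The other 2 probe sets of Tcf3 were also higher in every E13-labelled array, at 37.2 ± 40.8 units in E10-labelled and 143 ± 51.1 units in E13-labelled cells for 1427764_a_at. That probe set passed the filter only through the E13-labelled arrays. The dimmest, 1452542_x_at, averaged 5.99 ± 2.63 units in E10-labelled and 54.1 ± 32.3 units in E13-labelled cells, below the median on every array, and was not tested.

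**Figure D2:**
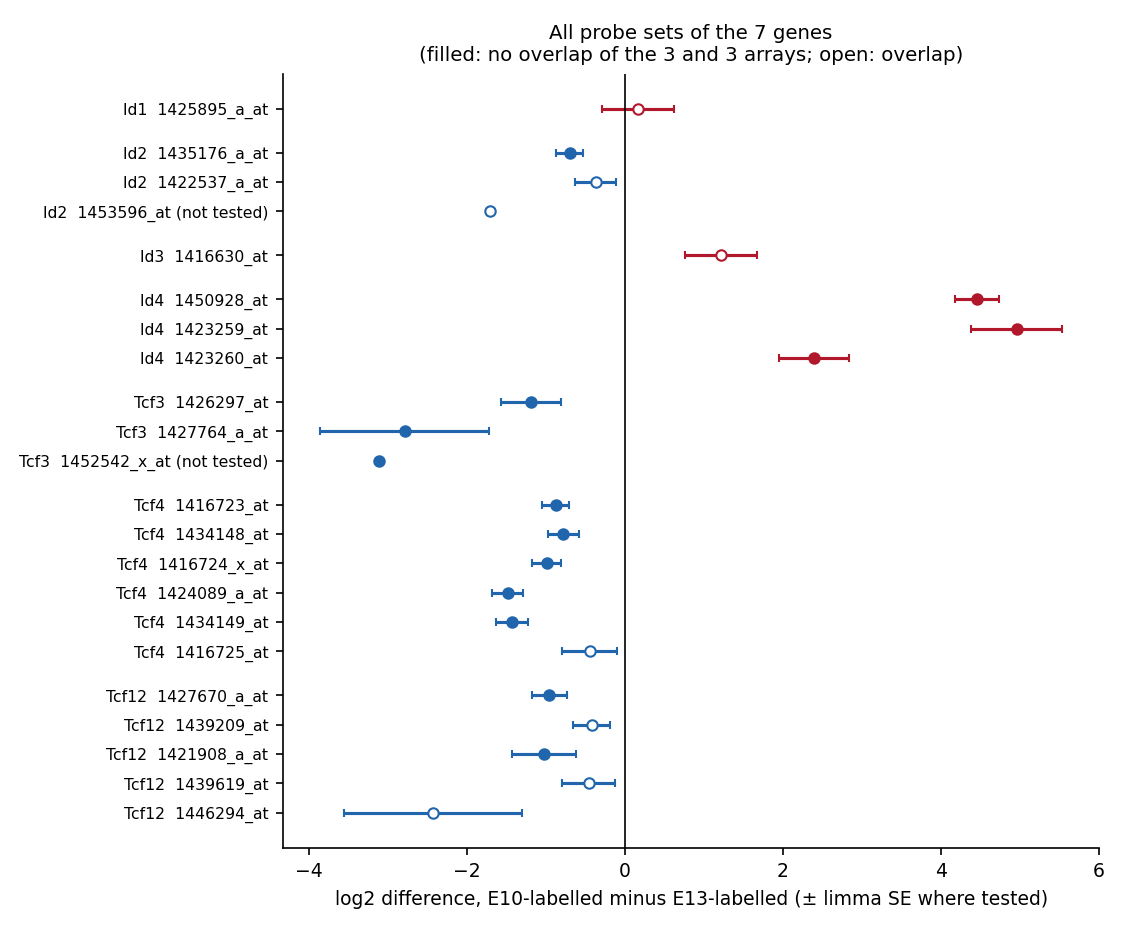
Log2 difference (E10-labelled minus E13-labelled) of all 22 probe sets, ordered by gene and then by mean signal, with limma's standard error for the 20 tested ones; filled points have no overlap between the 3 arrays of each group. All 3 Id4 probe sets lie between 2.40 and 4.96, while the 14 E protein probe sets all lie below 0, from -3.12 to -0.42.

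**Figure D3:**
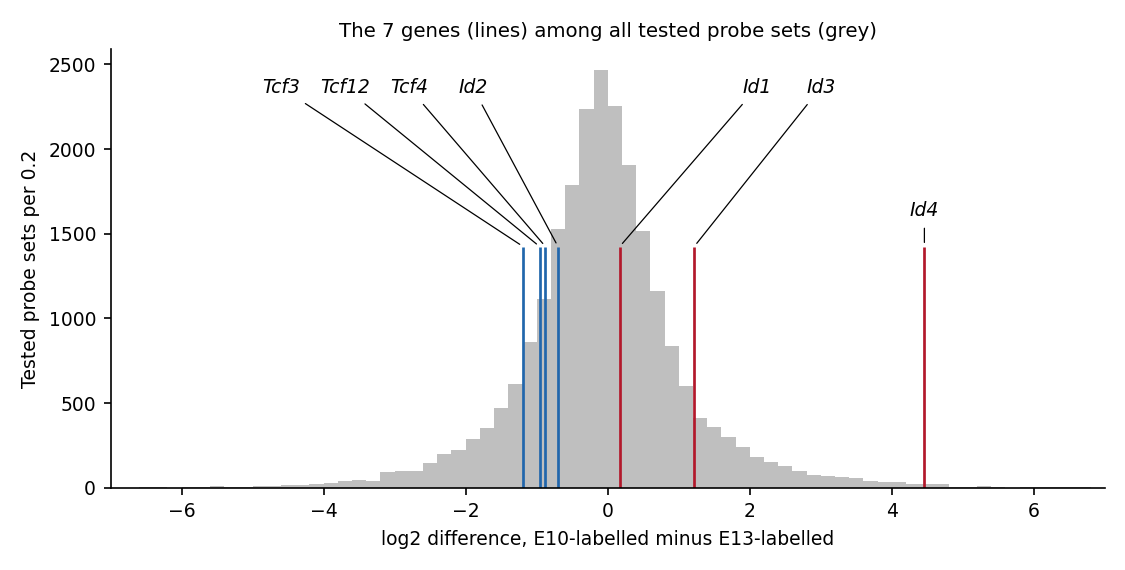
Number of tested probe sets per 0.2-wide bin of log2 difference (grey, all 23491 probe sets), with lines at the representative probe sets of the 7 genes, red where E10-labelled and blue where E13-labelled cells are higher. Id4 at 4.46 lies in the far tail, and Tcf3 at -1.19, Tcf12 at -0.96, Tcf4 at -0.88 and Id2 at -0.70 lie close to each other on the other side.

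The differences of Id2, Tcf4, Tcf12 and Tcf3 were moderate against the whole array. Of all tested probe sets, 23.6% had a lower difference than the brightest Id2 probe set, and the shares were 18.6% for Tcf4, 16.7% for Tcf12 and 12.3% for Tcf3. For Id3, 9.82% of tested probe sets had a higher difference, and for Id1 37.1%. The median log2 difference over all tested probe sets was -0.09.

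The promoters of Id4, Id2, Tcf3 and Tcf12 are shown because Id4 differed in the direction opposite to the other 3, and because E proteins, the partners of Id proteins, bind E-boxes. Each is the 250 bases before a transcription start in RefSeq (GRCm38.p6), 5′ to 3′ on the strand of the gene. Capitals mark the E-box CANNTG and the motif GGCGCC, a GC-rich element known to be bound by the Smad factors of the BMP pathway. Each motif reads alike on both strands in its fixed letters, and no matches overlapped. Windows were read for 5 of the 7 genes, with 7 starts in all. No window was read for Id1 or Tcf4, so nothing is said of their promoters. The Id4 window lies at chr13:48260866-48261115 on the plus strand, and the Id2 window at chr12:25096093-25096342 on the minus strand. The Tcf3 window lies at chr10:80433636-80433885 on the minus strand. The Tcf12 window, for the start farthest upstream of 3, lies at chr9:72111820-72112069 on the minus strand. The RefSeq gene spans end at 80433976 for Tcf3 and 72111893 for Tcf12. The Tcf3 window therefore lies inside its annotated gene, and the Tcf12 window partly inside.
Id4: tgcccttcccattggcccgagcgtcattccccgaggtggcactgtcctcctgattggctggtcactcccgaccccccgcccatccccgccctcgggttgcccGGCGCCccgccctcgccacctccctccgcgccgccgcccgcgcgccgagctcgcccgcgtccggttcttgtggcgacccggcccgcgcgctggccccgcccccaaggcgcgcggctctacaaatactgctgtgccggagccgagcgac
Id2: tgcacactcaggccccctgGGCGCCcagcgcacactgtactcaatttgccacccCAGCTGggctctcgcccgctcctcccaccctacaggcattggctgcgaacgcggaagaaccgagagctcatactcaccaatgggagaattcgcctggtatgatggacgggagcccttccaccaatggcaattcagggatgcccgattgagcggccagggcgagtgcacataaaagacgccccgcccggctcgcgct
Tcf3: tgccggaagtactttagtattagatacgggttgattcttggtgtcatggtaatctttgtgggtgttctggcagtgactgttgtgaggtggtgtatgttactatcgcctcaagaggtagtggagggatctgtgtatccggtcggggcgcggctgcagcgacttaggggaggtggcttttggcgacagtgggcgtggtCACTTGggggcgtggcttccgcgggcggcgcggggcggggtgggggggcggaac
Tcf12: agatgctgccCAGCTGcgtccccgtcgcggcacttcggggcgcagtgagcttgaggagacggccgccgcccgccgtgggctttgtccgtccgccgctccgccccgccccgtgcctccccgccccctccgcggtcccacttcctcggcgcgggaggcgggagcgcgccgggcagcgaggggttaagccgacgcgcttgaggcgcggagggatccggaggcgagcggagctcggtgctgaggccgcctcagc
The Id4 window held 1 GGCGCC and no CANNTG. The Id2 window held 1 of each, with the E-box CAGCTG beginning 196 bases before the start. The Tcf3 window held the E-box CACTTG 54 bases before the start, and the Tcf12 window the E-box CAGCTG 240 bases before it. Of the windows not printed, that of Id3 and that of the Tcf12 start farthest downstream held neither motif, and the remaining Tcf12 window held the E-box CAAGTG 149 bases before its start. Over the 7 windows read, which leave out Id1 and Tcf4, 4 held CANNTG and 2 held GGCGCC. Over the 32851 promoter windows of this length that were read, 66.2% held CANNTG and 9.59% held GGCGCC. A match is a description of the letters, and no binding was measured.

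Genes whose log2 signals over the 6 arrays, each centred on its own mean, lay nearest to those of a member were found by the root mean square difference, 2 for each member. For Id4 they were Prkar1b, a regulatory subunit of protein kinase A found mainly in neurons, with a root mean square difference of 0.12, and Srsf12, a splicing factor, with 0.17. Prkar1b averaged 9481 ± 917 units in E10-labelled and 481 ± 163 units in E13-labelled cells, and Srsf12 averaged 1399 ± 50.5 against 67.7 ± 32.8 units. For Id2 they were Dbi and Polr2c, for Tcf4 Kcnk2 and Rplp0, and for Tcf12 Casp2 and Fiz1, all between 0.04 and 0.05 log2 units away. For Tcf3 they were Lef1 at 0.08 and Il17ra at 0.13, for Id1 Klf15 at 0.10 and Nxpe3 at 0.11, and for Id3 Arl15 at 0.11 and Jag2 at 0.15. These distances are over 6 arrays in 2 groups, so they mainly compare the size of the group difference.

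The tissue-restricted partners of E proteins split between the groups. Of 39 listed partner genes, 37 were measured and 12 tested; 3 were higher in E10-labelled cells, 4 were higher in E13-labelled cells and 5 did not pass (limma, Benjamini-Hochberg adjusted p under 0.05), which is 58.3% of the tested genes called, against 30.1% of all 11071 tested genes. Over all tested genes, 16.2% were called higher in E10-labelled cells and 13.9% higher in E13-labelled cells. The median log2 difference was -0.04 over the 12 genes and -0.03 over all tested genes. The list was chosen with earlier results of these data known, so nothing is read from its share of calls. Atoh1, the proneural factor on which the labelling rests, read 936, 397 and 738 units in E10-labelled arrays, against 9733, 6819 and 9372 units in E13-labelled arrays, a log2 difference of -3.72 ± 0.36 (limma's SE, adjusted p = 0.00196). The labelling chose cells by Atoh1 expression, nearer to collection in the E13-labelled group. Olig3, a factor of dorsal hindbrain progenitors, averaged 83.8 ± 20.5 units in E10-labelled and 329 ± 55.7 units in E13-labelled cells (SD, n = 3 each; limma adjusted p = 0.00400), with all E10-labelled arrays at or below their medians. Olig3 and Tcf24 passed the filter on low signals only through the group where they were higher, so their entry into the tested genes depends on the difference.

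Partners higher in E10-labelled cells were Tcf24, Olig1 and Olig2. Olig1, a factor of oligodendrocyte precursors and of some neuron progenitors, read 2281, 1814 and 2351 units in E10-labelled arrays, against 170, 219 and 103 units in E13-labelled arrays, 13.6-fold apart (limma adjusted p = 0.00149). Tcf24, a little-studied factor of the same class, averaged 1029 ± 433 units in E10-labelled and 27.4 ± 11.2 units in E13-labelled cells (limma adjusted p = 0.00153), and all E13-labelled arrays lay below their medians. Its log2 difference of 5.25 fell to 3.24 once low signals were raised to the median of their array. Neurod1 and Nhlh1 completed the 4 genes higher in E13-labelled cells.

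Genes of the BMP pathway, a known inducer of Id genes, differed in both directions. Of 28 listed genes, 27 were measured and 17 tested; 2 were higher in E10-labelled cells, 5 were higher in E13-labelled cells and 10 did not pass (limma), 41.2% called against 30.1% of all tested genes, with a median log2 difference of -0.23. Fst, which encodes follistatin, a secreted antagonist of activins and BMPs, read 392, 341 and 331 units in E10-labelled arrays, against 2655, 2649 and 2664 units in E13-labelled arrays, 7.51-fold higher in E13-labelled cells (limma adjusted p = 0.00113). Smad7, a feedback inhibitor, averaged 306 ± 129 units in E10-labelled and 956 ± 177 units in E13-labelled cells (SD, n = 3 each; limma adjusted p = 0.0145), a call lost without E13-labelled replicate 1 (0.0606) or 3 (0.0623) and without the filter on low signals (0.0601), with adjusted p from 0.00416 to 0.0623 over the alternatives. Bmpr1a, a BMP receptor, averaged 1971 ± 268 units in E10-labelled and 4680 ± 390 units in E13-labelled cells (limma adjusted p = 0.00625). Chrd, which encodes the BMP antagonist chordin, averaged 157 ± 66.0 units in E10-labelled and 56.2 ± 11.2 units in E13-labelled cells (limma adjusted p = 0.029). That call was lost without E13-labelled replicate 1 (0.101), 2 (0.0594) or 3 (0.102) or E10-labelled replicate 1 (0.0583), and its adjusted p ran from 0.0167 to 0.230 over the alternatives; all E13-labelled arrays lay below their medians, so it passed the filter only through the E10-labelled arrays. Acvr2a was the other called gene higher in E10-labelled cells. The ligands Bmp2, Bmp4 and Bmp5 were not tested because of low signals, while the ligands Bmp6 and Bmp7 were tested and did not pass. The list's count of calls was 3 and 4 without E13-labelled replicates 1 and 3. As this list was also chosen with earlier results known, nothing is read from its share of calls.

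Among 10 genes of E protein cofactors and Id protein turnover, all were tested, 1 was higher in E10-labelled cells, 3 were higher in E13-labelled cells and 6 did not pass (limma), 40.0% called against 30.1% of all tested genes, with a median log2 difference of -0.33. The ETO family of corepressors, which bind E proteins, moved in both directions. Runx1t1 read 6014, 7537 and 7227 units in E10-labelled arrays, against 1906, 2341 and 1946 units in E13-labelled arrays, 3.35-fold higher in E10-labelled cells (limma adjusted p = 0.00253). Its relatives Cbfa2t2 and Cbfa2t3 were lower in E10-labelled cells, at 2583 ± 460 against 6054 ± 524 units and at 703 ± 85.7 against 1576 ± 165 units (SD, n = 3 each; limma adjusted p = 0.00807 and 0.00798). Usp1, a deubiquitinase known to stabilise Id proteins, read 2726, 1253 and 2146 units in E10-labelled arrays, against 8801, 8106 and 8002 units in E13-labelled arrays, 4.27-fold higher in E13-labelled cells (limma adjusted p = 0.00596). Its partner Wdr48 and the acetyltransferase genes Ep300, Crebbp, Kat2a and Kat2b did not pass. These genes too were listed with earlier results known, and nothing is read from their share of calls.

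**Figure D4:**
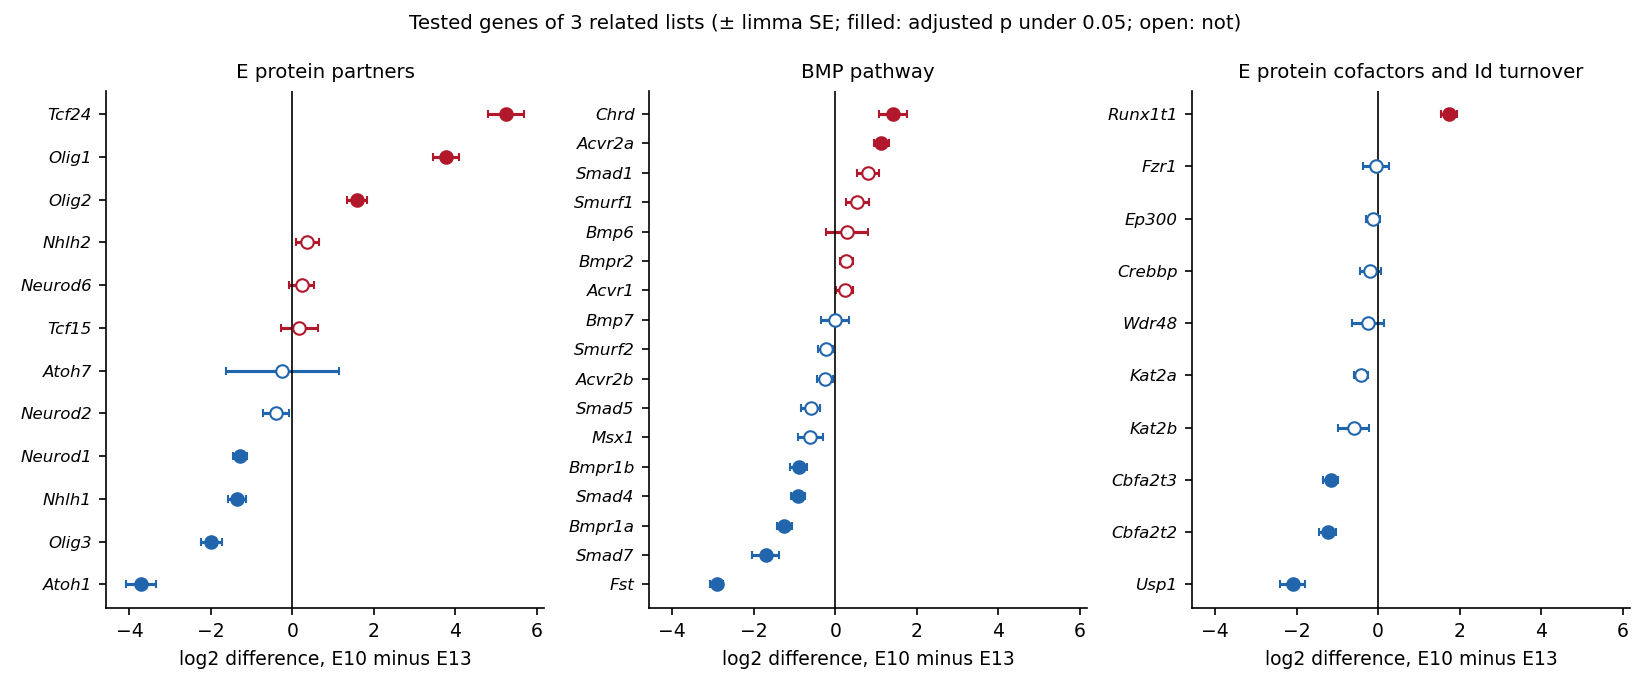
Log2 difference (E10-labelled minus E13-labelled) with limma's standard error for the tested genes of the 3 related lists; filled points have an adjusted p under 0.05. Fst, Usp1 and Atoh1 lie far on the side of E13-labelled cells, and Tcf24, Olig1 and Runx1t1 on the side of E10-labelled cells.

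Id genes are also expressed by glia, vessels and meninges, so markers of other cell types were read on the same arrays as summed signals over each list. Endothelial and mural markers summed to 768 to 3341 units in E10-labelled and 456 to 2212 units in E13-labelled arrays, none of 5 tested genes passed, and Pecam1, Cdh5 and Emcn were at or below the median on every array. Meningeal markers summed to 418 to 1805 units in E10-labelled and 306 to 586 units in E13-labelled arrays, with Dcn, Lum, Foxd1 and Twist1 at or below the median throughout. Choroid plexus and roof plate markers summed to 346 to 440 units in E10-labelled and 228 to 1878 units in E13-labelled arrays, and 5 of 7 measured genes were at or below the median throughout. The upper end came from Ttr on E13-labelled replicate 3, at 1547 units, against 20.5 and 13.2 units on replicates 1 and 2. Radial glia and astrocyte markers summed to 12121 to 13834 units in E10-labelled and 13139 to 16132 units in E13-labelled arrays; of 7 tested genes, Fabp7 and Aldh1l1 were higher in E10-labelled cells and Slc1a3 and Gja1 in E13-labelled cells, while Aqp4 and Gfap were at or below the median throughout. Aldh1l1 passed the filter on low signals only through the E10-labelled arrays, with every E13-labelled array below its median, and its call was lost with no filter (limma adjusted p = 0.101) and with a floor at the array median (0.0826).

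Beside Id4, 3 of these lists had a higher sum in every E10-labelled array than in any E13-labelled array, those of oligodendrocyte precursors, of GABAergic and Purkinje neurons and of microglia. Oligodendrocyte precursor markers summed to 3571 to 3944 units in E10-labelled and 1535 to 2043 units in E13-labelled arrays, with Olig1 and Olig2 higher in E10-labelled cells, Pdgfra higher in E13-labelled cells and none of 6 measured genes at or below the median throughout. The separation of these sums rests on Olig1, which averaged 2149 ± 292 units in E10-labelled and 164 ± 58.2 units in E13-labelled cells. Sox10 and Mbp did not pass. Markers of GABAergic and Purkinje neurons summed to 1840 to 3299 units in E10-labelled and 409 to 655 units in E13-labelled arrays; 3 of 4 tested genes (Gad1, Gad2 and Calb1) were higher in E10-labelled cells. The microglial list summed to 582 to 1481 units in E10-labelled and 338 to 491 units in E13-labelled arrays, with Csf1r higher in E10-labelled cells, and Aif1, C1qa and Fcer1g at or below the median throughout. The separation of these sums depends on Csf1r, which averaged 510 ± 244 units in E10-labelled and 136 ± 27.8 units in E13-labelled cells. Of 8 measured genes 2 were tested, and C1qb, the other tested gene, did not pass. Red blood cell markers summed to 501 to 5231 units in E10-labelled and 676 to 723 units in E13-labelled arrays, and none of 3 tested genes passed. The calls of Lhx2, Zic2, En2, Slc1a3, Fabp7, Aldh1l1, Pdgfra, Csf1r, Gad1 and Gad2 were all lost without E13-labelled replicate 1, some of them also without other arrays, and their adjusted p ran up to 0.262 (Gad1; limma) over the alternatives. The part of these cell types in the differences of the Id and E protein genes was not tested.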

How the data were processed

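The authors deposited MAS5 signals, intensities on a linear scale, with 1 value for each probe set on each array. MAS5 is named in the submitters' processing notes, with no version, detection calls or pooling recorded there. Every deposited array has the same mean without its lowest and highest 2%, so a change in total RNA per cell cannot be read, and low signals vary strongly on the log scale. Gene names came from the platform annotation: of 45101 probe sets, 64 were controls and not tested, and of the others 34945 named 1 symbol, 932 several and 9160 none. Log2 signals were fitted with limma 3.58.1 (lmFit and eBayes, R 4.3.3) on all 6 arrays, with Benjamini-Hochberg adjustment over 23491 tested probe sets and a threshold of 0.05, two-sided, and the fit was tested on simulated data. A gene was represented by the probe set of that symbol alone whose mean log2 signal was highest. The members and the lists were chosen with earlier results of these data known. Named genes were the members, the 2 nearest patterns of each, up to 4 called genes per related list with the largest differences, and Atoh1; other names were chosen after their values were seen. The labels do not say whether equal replicate numbers pair the samples, and the main fit took no pairing. Deviations from the group means correlated at -0.03, -0.07 and -0.01 for equal numbers. With 3 arrays per group, these correlations cannot show whether samples were paired. Alternatives were a replicate block, other scalings, an offset of 5.97 units, a floor, other filters, variance models, array weights, a stricter threshold, other probe set choices and arrays left out.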

Additional observations from a re-analysis of the deposited data

How the results depend on the processing

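The log2 differences of the 7 genes were recomputed 125 times in all. The replicate block, other filters and variance models leave a difference unchanged by construction, so those recomputations do not test its sign. The sign changed in 3 recomputations, all for Id1. The Id1 difference was -0.07 and -0.10 without E10-labelled replicates 1 and 3, and -0.23 without the number 3 arrays of both groups. Over the fits that left out 1 array, the difference ran from 4.28 to 4.71 for Id4, -0.75 to -0.61 for Id2, -0.10 to 0.67 for Id1, 0.90 to 1.64 for Id3, -1.48 to -0.79 for Tcf3, -0.92 to -0.80 for Tcf4 and -1.11 to -0.77 for Tcf12. Averaged over all probe sets of a gene it was 3.94 for Id4, -0.93 for Id2, -2.37 for Tcf3 and -1.002 for Tcf4, which gives dim probe sets equal weight. Without the probe set types that can match several transcripts it was -1.71 for Id2, from an untested dim probe set, and -0.42 for Tcf12, while Id1 had no other probe set. Without the number 3 arrays of both groups it was -0.58 for Id2, 0.64 for Id3, 4.16 for Id4, -1.21 for Tcf3, -0.93 for Tcf4 and -0.75 for Tcf12.

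Counts of calls varied with the settings, also with those that cannot change a difference. All tested probe sets past the threshold numbered 6094, against 2433 at an adjusted p of 0.01, 2719 with no filter, 3590 with the replicate block and 1481 without the number 3 arrays of both groups, and 2937 to 5847 with 1 array left out. Member probe sets past it numbered 10, against 4, 6, 5 and 2 in the same order, and 5 to 11 with 1 array left out. Genes of the BMP pathway numbered 7, against 3, 3, 4 and 2, and 3 to 9 with 1 array left out. Genes of E protein cofactors and Id turnover numbered 4, against 2 with no filter and 0 without the number 3 arrays of both groups (limma; 4 at an unadjusted p under 0.05; no other tool was run), and 4 in each fit with 1 array left out. Partner genes numbered 7, against 7 at an adjusted p of 0.01, with no filter and with the replicate block. The partner count was 5 without the number 3 arrays of both groups and 5 with a filter at the 70th percentile, and 7 in each fit with 1 array left out. Fits without an array kept the probe sets tested with all 6. Low signals limit Id1, Id3 and the dim probe sets.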
